A study of Mus musculus with 18 samples.

Results

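The scavenger and mannose receptors described here are 7 genes, *Msr1*, *Marco*, *Mrc1*, *Stab1*, *Cd163*, *Cd36* and *Scarb1*, which were taken by gene symbol from an RNA-seq table of 20298 genes. All 7 were listed in all 18 libraries. The libraries form 6 groups of 3, from WT and DKI mice of the C57BL/6 strain. In DKI mice, knockin mutations of the N-domains of *Stat5a* and *Stat5b* leave STAT5 able to form dimers but not tetramers. Both genotypes were sampled as unstimulated monocytes (day 0) and as monocyte-derived cells (MDCs) cultured for 3 or 6 days with 20 ng/mL GM-CSF, a cytokine that signals through STAT5 and drives monocytes toward macrophage-like and dendritic cell-like states. GM-CSF was therefore shared by the WT and DKI cultures of days 3 and 6, and no culture without GM-CSF was compared at those days. The mutations are present in every cell of the DKI mice. The study describes the RNA as collected over independent experiments. The sources used here do not say whether each library came from 1 mouse or from pooled mice, and the p-values measure the spread between these libraries.

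Scavenger receptors are surface proteins that bind modified lipoproteins, apoptotic cells, microbial surfaces and other polyanionic ligands and carry them into the cell. They are grouped into classes by structure rather than by common ancestry. *Msr1* (scavenger receptor A, CD204) and *Marco* are collagen-like class A receptors, *Cd36* and *Scarb1* (SR-BI) are class B receptors that handle fatty acids, oxidized LDL and HDL cholesterol, *Stab1* (stabilin-1) clears SPARC and acetylated LDL, and *Cd163* takes up haemoglobin bound to haptoglobin. *Mrc1* (CD206) is the macrophage mannose receptor, a C-type lectin that binds mannose-ended glycans. Several of these genes, *Mrc1*, *Stab1* and *Cd163* above all, are commonly used as markers of tissue or alternatively activated macrophages.

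The labels give liver as the tissue, whereas the study's text and the series design give bone marrow. The 5 hepatocyte markers (*Alb*, *Apoa1*, *Ttr*, *Tat*, *Cyp2e1*) summed to at most 0.0604 RPKM (read counts divided by gene length and by library depth) in any library. The labels name the cells as Ly6C+ CCR2+ monocytes, and the monocyte markers, *Ly6c2* and *Ccr2* among them, summed to between 2662 and 4214 RPKM in the 6 day 0 libraries. In the same libraries the neutrophil markers summed to between 1501 and 2946 RPKM and the eosinophil markers to between 146.5 and 581.4 RPKM. Of the neutrophil markers, *S100a8* gave the largest part (598.7 to 1722 RPKM) and *Ly6g* the smallest (1.14 to 3.15 RPKM). From the smallest nonzero values, the depth was estimated at 29.5 M to 43.2 M reads per library (median 36.4 M), and within groups the libraries correlated at r between 0.963 and 0.989 on the log2(RPKM + 1) scale. The names of the replicate 1 libraries of days 3 and 6 carry an earlier year than those of all other libraries, and values without these 4 early-named libraries are given where they differ.

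*Mrc1* and *Stab1* showed the largest fitted genotype differences of the 7 genes on days 3 and 6 (on the log2(RPKM + 1) scale), and the 250 bases before their RefSeq start sites (GRCm38.p6) are shown so that the sequence next to each start can be read beside the values. *Mrc1* spans chr2:14229414-14332023 on the plus strand with 30 exons in its longest transcript, and its upstream window is chr2:14229164-14229413. *Stab1* spans chr14:31139017-31168651 on the minus strand with 69 exons, and its upstream window is chr14:31168642-31168891, which lies before a start site that RefSeq places slightly inside the end of this span. Both sequences are written 5′ to 3′ on the strand of the gene.

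Mrc1: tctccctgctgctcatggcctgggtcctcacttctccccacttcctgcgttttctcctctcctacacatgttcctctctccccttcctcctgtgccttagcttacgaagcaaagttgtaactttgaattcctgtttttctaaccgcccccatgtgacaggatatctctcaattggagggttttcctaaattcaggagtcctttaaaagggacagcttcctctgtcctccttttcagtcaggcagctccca
Stab1: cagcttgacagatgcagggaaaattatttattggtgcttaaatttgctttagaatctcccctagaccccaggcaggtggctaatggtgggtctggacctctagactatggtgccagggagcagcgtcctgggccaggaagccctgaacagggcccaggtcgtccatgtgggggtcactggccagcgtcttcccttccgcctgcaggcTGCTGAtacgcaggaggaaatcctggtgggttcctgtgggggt

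Such a window was found for 5 of the 7 genes (*Mrc1*, *Stab1*, *Marco*, *Cd36* and *Cd163*). Searched on both strands, none of the 5 held the consensus STAT5 motif TTCNNNGAA, the STAT6 motif TTCNNNNGAA or the long PU.1 motif GAGGAAGT. These were found in 7.02%, 5.85% and 2.44% of 32851 mouse windows of the same length. Shorter PU.1 motifs were not searched for, and GAGGAA can be read in both windows above (in *Mrc1* on the other strand). The MAF core TGCTGA, added to the search after the expression values were seen, was found in *Stab1* (in capitals above, starting 43 bases before the start site) and in *Cd36* (11 bases before an alternative start site that lies inside the span of the gene given here), and in 16.1% of all windows. These are matches of letters within the window only. According to the study, STAT5 tetramers can also use weaker, non-consensus sites at a suitable spacing, and such sites were not searched for.

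Before GM-CSF, the WT and DKI monocytes carried the same set of receptors at levels that overlapped. *Msr1* and *Scarb1* made up most of the receptor signal. *Mrc1*, *Cd36* and *Cd163* were low, *Stab1* was under 1 RPKM, and *Marco* was near 0. In replicates 1, 2 and 3, *Msr1* was measured at 84.3, 115.6 and 43.6 RPKM in WT and at 76.9, 93.7 and 45.7 RPKM in DKI. *Scarb1* was at 57.1, 73.4 and 74.6 RPKM in WT and at 58.0, 73.5 and 76.2 RPKM in DKI. For both genes the order of the 3 replicates was the same in WT and DKI. *Marco* was listed at 0 in 5 of the 6 libraries and at 0.0119 RPKM in WT replicate 2, a value of about 1 read.

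In the day 0 fit, 5 of the 7 genes passed the filter of a mean above 2 RPKM in at least one genotype, and none of them was called differentially expressed (limma, with limits of 0.05 on the adjusted p and of 1.5 on the fold), nor was any of the 9179 genes fitted, for a background of 0% (44 genes had an unadjusted p under 0.05, and a fit of all 18 libraries called 6). The largest difference was that of *Cd36*, with a log2 fold change of -0.26 (SE 0.52, 95% interval -1.52 to 1.01), and the smallest that of *Scarb1*, at 0.02 (SE 0.17, interval -0.39 to 0.42). *Stab1* (WT 0.815, 0.340 and 0.169 RPKM, DKI 0.775, 0.168 and 0.263 RPKM) and *Marco* were under the filter.

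**Figure D1:**
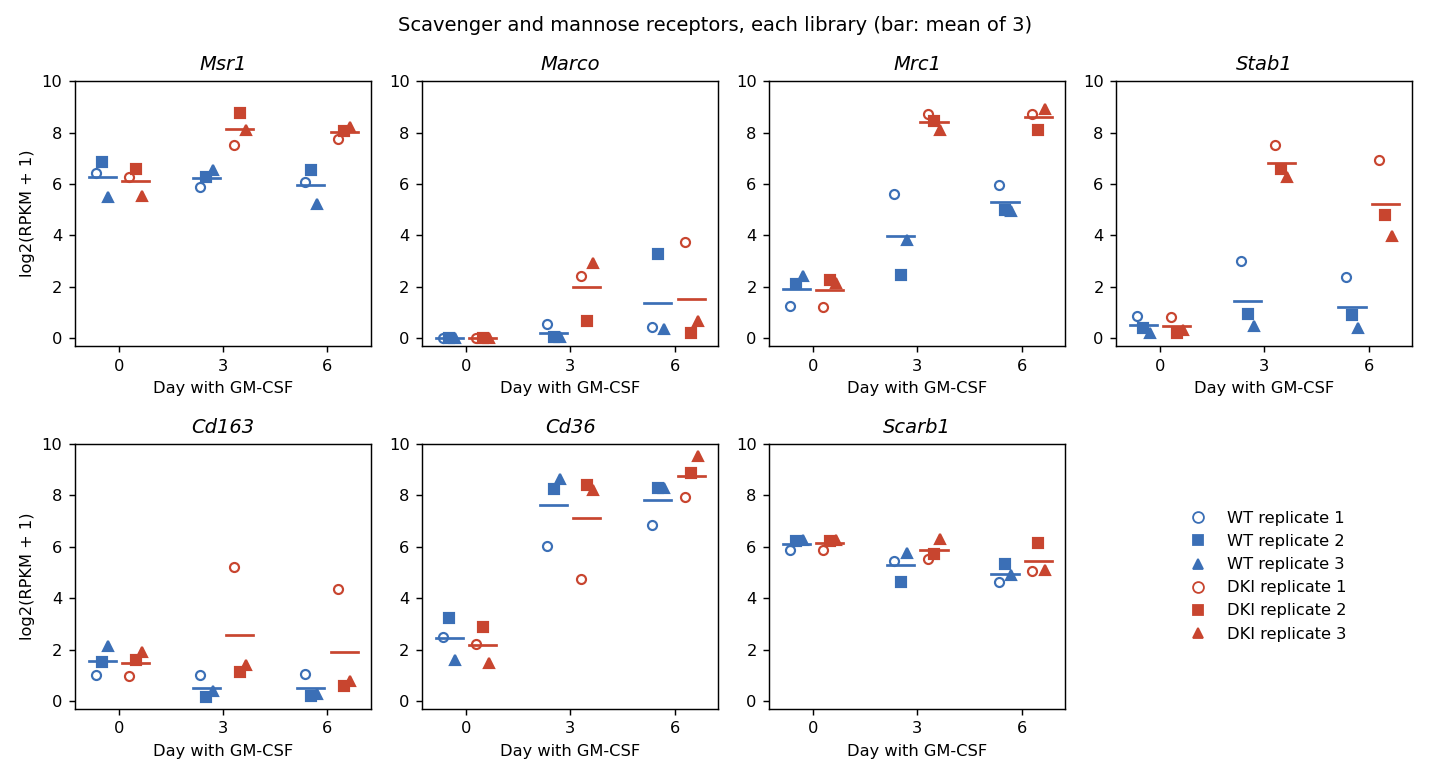
log2(RPKM + 1) of the 7 genes in each of the 18 libraries, by day with GM-CSF (x axis), with WT in blue, DKI in red, a marker shape for each replicate and a bar at the mean of the 3 libraries. On days 3 and 6 every DKI library lies above every WT library for *Msr1*, *Mrc1* and *Stab1*, while *Cd36* rises in both genotypes and *Scarb1* stays within a narrow range.

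After 3 and 6 days with GM-CSF, the DKI MDCs expressed more *Msr1*, *Mrc1* and *Stab1* than the WT MDCs, with ratios of the mean RPKM of 3.90, 15.8 and 43.0 at day 3 and 3.97, 9.74 and 29.8 at day 6. *Marco*, *Cd163*, *Cd36* and *Scarb1* did not pass the test on either day. On day 3, 3 of the 7 genes were called higher and 0 lower, against a background of 3.21% of 9740 genes called higher and 4.21% lower. On day 6, again 3 of 7 were called higher and 0 lower, against 2.72% and 4.82% of 9842 genes. The median log2 fold change of the 7 genes was 1.89 on day 3 and 1.39 on day 6, beside -0.11 and -0.17 over all genes fitted. These counts and medians are descriptions, since *Marco* and *Cd163* on day 3 and *Stab1* and *Cd163* on day 6 passed the filter only through their DKI level. Centring every library on its median, which brought this shift to -0.04 on day 3 and -0.02 on day 6, changed the split of all calls on day 6 from 268 higher and 474 lower to 323 and 285, and quantile normalization to 342 and 310, while the same 3 receptors were called under both (log2 fold changes of 1.97, 4.53 and 5.41 on day 3 and 2.21, 3.44 and 4.15 on day 6 for *Msr1*, *Mrc1* and *Stab1* with centring). The WT and DKI ranges did not overlap, with DKI higher, for 5 of the 7 genes on day 3 (13.4% of all genes) and for 3 on day 6 (10.6%). In bulk libraries, fewer cells of a type and less RNA per cell cannot be told apart, and this holds for every difference described here.

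*Msr1*, the class A receptor for modified LDL (chr8:39543232-39642750, minus strand), had the highest day 0 level of the 3 genes called. On day 3 its values were 58.4, 75.8 and 92.7 RPKM in WT and 183.0, 427.2 and 274.2 RPKM in DKI, a log2 fold change of 1.89 (SE 0.35, adjusted p = 0.0289). On day 6 they were 66.8, 92.8 and 36.0 RPKM in WT and 213.6, 267.9 and 295.7 RPKM in DKI, a log2 fold change of 2.06 (SE 0.36, adjusted p = 0.0282). The lowest DKI library on either day was above the highest WT library, and DKI was higher in 3 of 3 same-numbered pairs on each day. The direction was the same whichever library was left out (1.58 to 2.19 on day 3, 1.69 to 2.36 on day 6), but the day 3 call was lost without any of WT replicates 1, 2 and 3 or DKI replicates 2 and 3 (adjusted p 0.0505 to 0.106) and the day 6 call without WT replicate 1 or 3 or DKI replicate 1 or 3 (adjusted p 0.0552 to 0.0933). Without the filter on low genes the adjusted p was 0.0609 on day 3 and 0.0592 on day 6.

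*Mrc1*, the mannose receptor, was low in all monocytes and high in every DKI culture. Its day 3 values were 48.2, 4.47 and 13.3 RPKM in WT and 417.2, 345.2 and 275.8 RPKM in DKI, a log2 fold change of 4.45 (SE 0.74, adjusted p = 0.0236). Its day 6 values were 60.8, 30.5 and 29.9 RPKM in WT and 418.8, 275.2 and 487.0 RPKM in DKI, a log2 fold change of 3.29 (SE 0.35, adjusted p = 0.00926). The WT libraries of day 3 spread over more than a 10-fold range, whereas the DKI libraries stayed close together. The same-numbered pairs gave DKI to WT ratios between 8.66 and 77.3 on day 3 and between 6.88 and 16.3 on day 6. The day 3 call was lost without WT replicate 3 (adjusted p = 0.0821), DKI replicate 2 (0.0559) or DKI replicate 3 (0.0510) and without the filter on low genes (0.0572), while the day 6 call was kept in all 6 of these omissions.

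*Stab1*, stabilin-1, had the largest fold difference of the 7 genes on both days. On day 3 it was at 6.94, 0.917 and 0.381 RPKM in WT and at 182.2, 95.1 and 77.1 RPKM in DKI, a log2 fold change of 5.33 (SE 0.68, adjusted p = 0.0119), and this call was kept whichever library was left out. By day 6 it stood at 4.28, 0.891 and 0.306 RPKM in WT and at 121.8, 26.6 and 14.8 RPKM in DKI, a log2 fold change of 4.0 (SE 0.85, adjusted p = 0.0426). The DKI libraries differed among themselves by more than 8-fold on day 6, with replicate 1 the highest, and replicate 1 was also the highest of its group in the other 5 groups. The day 6 call was lost when any 1 of the 6 libraries was left out (log2 fold change 3.15 to 4.63, adjusted p 0.0547 to 0.144) and without the filter on low genes (0.0868).

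Without the 4 early-named libraries, the DKI to WT ratio of *Mrc1* was 35.0 on day 3 and 12.6 on day 6 and that of *Stab1* 133 and 34.6. All 3 of these genes remained called on day 3, and none on day 6, where the adjusted p was 0.163 for *Msr1*, 0.0559 for *Mrc1* and 0.0629 for *Stab1* with 2 libraries per genotype.

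**Figure D2:**
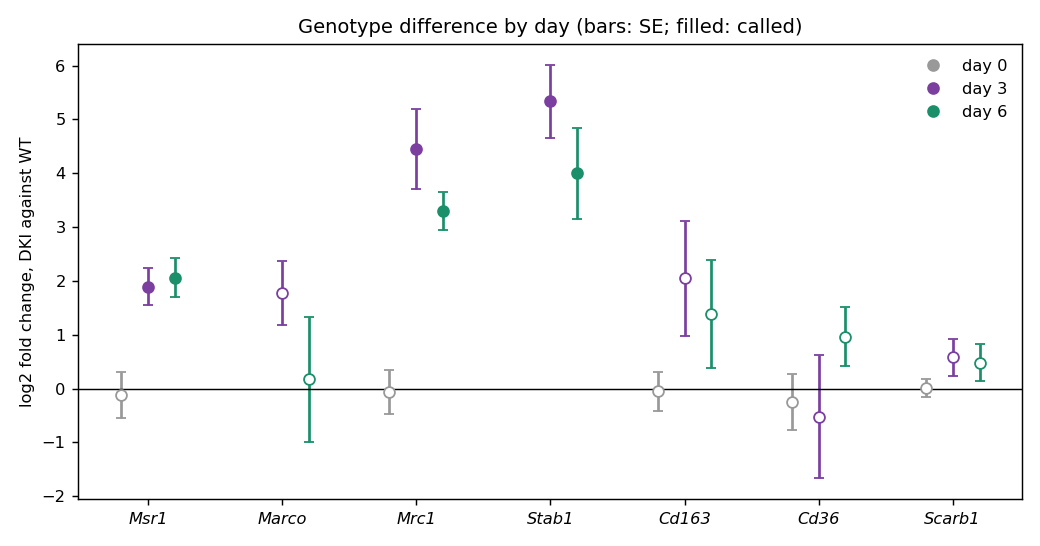
log2 fold change between DKI and WT libraries on days 0, 3 and 6 for each gene (points, with the standard error as bars), filled where the gene was called. Filled points appear for *Msr1*, *Mrc1* and *Stab1* on days 3 and 6 only, and *Stab1* and *Marco* have no day 0 point because they were under the filter.

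*Cd163*, the haptoglobin-haemoglobin receptor (chr6:124304636-124330529, plus strand), was set apart by replicate 1 of the DKI cultures. On day 3 it was at 1.04, 0.106 and 0.311 RPKM in WT and at 35.6, 1.16 and 1.64 RPKM in DKI. Its day 6 levels were 1.08, 0.161 and 0.206 RPKM in WT and 19.6, 0.491 and 0.695 RPKM in DKI. The log2 fold changes of 2.05 (SE 1.07, adjusted p = 0.282) and 1.39 (SE 1.01, adjusted p = 0.404) did not pass the test, although DKI was higher in 3 of 3 pairs on both days and the day 3 ranges did not overlap. Without the early-named libraries the ratio of the means was 6.71 in place of 26.3 on day 3 and 3.23 in place of 14.3 on day 6.

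Of the tissue-resident macrophage markers, *Siglec1*, *Vcam1* and *Spic* also had their highest culture values of days 3 and 6 in DKI replicate 1, and *Cd5l* did not. The 6 markers used here (*Vcam1*, *Siglec1*, *Spic*, *Clec4f*, *Timd4* and *Cd5l*) summed to 326.4 RPKM in DKI replicate 1 on day 3, against 9.41 and 11.1 RPKM in the other DKI libraries and 2.81 to 8.71 RPKM in WT. On day 6 the sums were 250.1 RPKM in DKI replicate 1, 9.88 and 48.5 RPKM in the other DKI libraries and 6.49 to 19.2 RPKM in WT. *Siglec1* gave 303.2 and 228.5 RPKM of the sums in DKI replicate 1. *Vcam1* was at 19.0 and 11.3 RPKM and *Spic* at 3.05 and 4.65 RPKM in these libraries, against at most 1.16 and 0.279 RPKM in the other DKI cultures of days 3 and 6. The monocytes of day 0 held 2.41 to 7.32 RPKM of *Vcam1* and 0.107 to 5.94 RPKM of *Spic*. *Cd5l* was at 1.17 and 5.64 RPKM in DKI replicate 1 on days 3 and 6. Among the DKI cultures it was highest in replicate 3 (2.47 RPKM on day 3 and 29.9 RPKM on day 6). On day 3, WT replicate 3 was higher still, at 8.09 RPKM. *Clec4f* and *Timd4*, which define Kupffer cells and some other resident macrophages, stayed at or under 0.0266 RPKM in all day 3 and day 6 libraries. Whether resident macrophages were present, and what part they had in the *Cd163* values, was not tested.

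**Figure D3:**
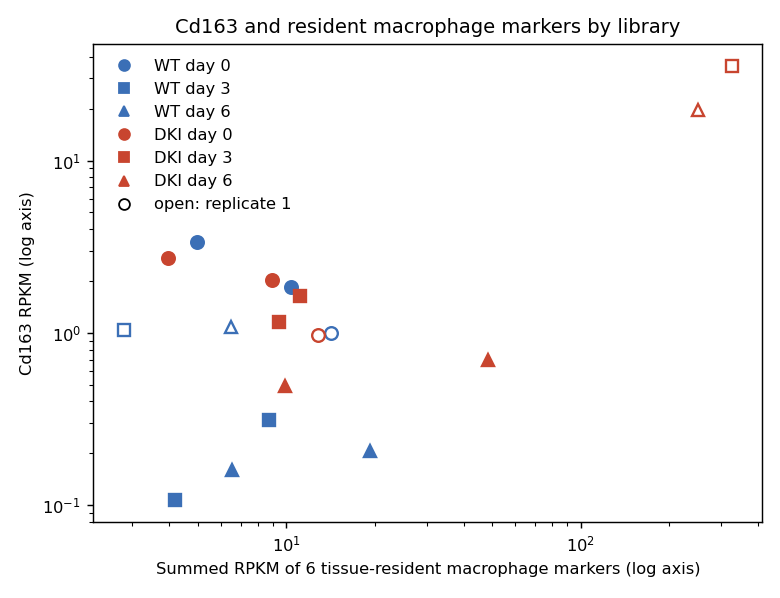
*Cd163* RPKM (y axis, log) against the summed RPKM of 6 tissue-resident macrophage markers (x axis, log) in each library, with WT in blue, DKI in red, a shape for each day and open symbols for replicate 1. The DKI replicate 1 libraries of day 3 (35.6 RPKM of *Cd163*) and day 6 (19.6 RPKM) stand apart from the other 16 at the upper right.

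*Marco*, the second collagen-like receptor (chr1:120474538-120505024, minus strand), varied widely between libraries of the same group. On day 3 it was at 0.471, 0.0268 and 0.0470 RPKM in WT and at 4.30, 0.576 and 6.60 RPKM in DKI, ranges that did not overlap, with a log2 fold change of 1.78 (SE 0.59, 95% interval 0.36 to 3.19, adjusted p = 0.123). The lowest of these values stand for about 2 and 3 reads. The day 6 levels were 0.360, 8.76 and 0.300 RPKM in WT and 12.5, 0.142 and 0.582 RPKM in DKI, so that the highest library of each genotype had a different replicate number and the ranges overlapped (log2 fold change 0.17, SE 1.17, interval -2.64 to 2.98). Without the early-named libraries the day 6 direction turned, with a log2 fold change of -1.41. Of all alternatives run, the day 3 difference was called only without DKI replicate 2 (2.45, adjusted p = 0.0271).

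*Cd36*, the fatty acid and oxidized LDL receptor (chr5:17781690-17888959, minus strand), rose from day 0 to day 3 in both genotypes. It was at 63.5, 303.1 and 397.9 RPKM in WT and at 25.8, 331.7 and 293.6 RPKM in DKI on day 3, and replicate 1 was the lowest library of both genotypes. Day 6 brought values of 113.5, 313.1 and 307.9 RPKM in WT and 240.8, 463.0 and 730.5 RPKM in DKI. DKI was higher in 1 of 3 pairs on day 3 and in 3 of 3 pairs on day 6. Neither difference passed the test (day 3 log2 fold change -0.53, SE 1.14, 95% interval -3.27 to 2.22, adjusted p = 0.801, and day 6 0.96, SE 0.55, interval -0.35 to 2.27, adjusted p = 0.294). The day 3 direction turned without DKI replicate 1 (0.66).

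*Scarb1*, the HDL receptor (chr5:125277087-125341094, minus strand), was the most even of the 7 genes. On day 3 it was at 42.7, 23.4 and 53.1 RPKM in WT and at 44.9, 52.1 and 77.9 RPKM in DKI. At day 6 the values were 24.0, 38.8 and 28.5 RPKM in WT and 32.0, 70.1 and 32.9 RPKM in DKI. DKI was higher in 3 of 3 pairs on both days, but the ranges overlapped and the log2 fold changes of 0.58 (SE 0.35, 95% interval -0.26 to 1.42, adjusted p = 0.343) and 0.48 (SE 0.35, interval -0.35 to 1.31, adjusted p = 0.402) did not pass the test. Leaving out a library gave 0.25 (without WT replicate 2) to 0.82 (without WT replicate 3) on day 3 and 0.11 (without DKI replicate 2) to 0.67 (without DKI replicate 1) on day 6.

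The changes from day 0 were tested within each genotype, where culture time and GM-CSF cannot be told apart. From day 0 to day 3 in WT cells, *Cd36* was the only one of the 6 genes fitted that was called, with a log2 fold change of 5.19 (SE 0.73, adjusted p = 0.00169), against a background of 20.3% of 9938 genes called higher and 22.8% lower. In DKI cells 5 of 7 genes were called higher and none lower, against 13.1% and 21.1% of 9922 genes (1297 and 2097 genes, and 1743 and 1622 with median centring). These were *Mrc1* (log2 fold change 6.54, SE 0.31), *Stab1* (6.33, SE 0.35), *Cd36* (4.92, SE 0.98), *Marco* (2.00, SE 0.57) and *Msr1* (1.99, SE 0.39), with adjusted p between 0.000332 and 0.0354. *Stab1*, *Marco* and *Cd163*, of which the last was not called, passed the filter only through their day 3 level and could not have been called lower. Because *Marco* was listed at 0 in all 3 DKI libraries of day 0, its mean of 3.83 RPKM on day 3 was at least 72.5-fold higher than a floor of 3 reads per library, and its call was lost in 5 of the 6 omissions of a library (adjusted p 0.0796 to 0.0931, all but that of DKI day 3 replicate 2), without the filter (0.0610), in the fit of all 18 libraries (0.0689) and without the early-named libraries (0.0796).

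In WT cells the other members fitted did not pass the test. *Mrc1*, at 1.42, 3.30 and 4.38 RPKM in WT on day 0, had a log2 fold change of 2.03 (SE 0.75, adjusted p = 0.0605). *Scarb1* had a log2 fold change of -0.83 (SE 0.30, adjusted p = 0.0553). *Cd163* had one of -1.02 (SE 0.37, adjusted p = 0.0558), and *Msr1* one of -0.02 (SE 0.36, 95% interval -0.87 to 0.83). *Stab1* had one of 0.96 (SE 0.63, adjusted p = 0.243), and of 0.20 without WT day 3 replicate 1. With another fit or scaling some of these passed. In the fit of all 18 libraries *Mrc1* (adjusted p = 0.0105) and *Scarb1* (0.0468) were called, and *Cd163* was called with quantile normalization (0.0160) or without the early-named libraries (0.0378). In WT, *Cd163* passed the filter only through its day 0 level (mean 2.06 RPKM) and could hardly have been called higher. *Stab1* passed only through its day 3 level (mean 2.75 RPKM) and could hardly have been called lower. Without WT day 3 replicate 2 *Mrc1* was called (0.0148), without WT day 3 replicate 3 *Scarb1* (0.0356), and without replicate 1 of WT day 0 (0.0276) or day 3 (0.0378) *Cd163*.

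Between days 3 and 6 no member was called in either genotype, nor was any other gene (0% of 9613 genes in WT and of 9540 in DKI by limma, with 722 and 93 genes at an unadjusted p under 0.05, and 16 and 0 genes called in the fit of all 18 libraries). *Stab1* in DKI had a log2 fold change of -1.56 (SE 0.78, 95% interval -3.43 to 0.31), with the DKI value lower on day 6 in 3 of 3 replicates. *Cd36* in DKI had one of 1.66 (SE 1.03, interval -0.83 to 4.14), with a higher value on day 6 in 3 of 3 replicates, and it was 0.47 without DKI day 3 replicate 1 and 0.90 without the early-named libraries.

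A call on days 3 and 6 and none on day 0 does not show by itself that the genotype difference changed with time, so this was tested as an interaction, the change in DKI minus the change in WT. From day 0 to day 3 it was called for *Stab1* (5.37, SE 0.79, adjusted p = 0.00597) and *Mrc1* (4.51, SE 0.91, adjusted p = 0.0274), against a background of 1.2% of 10212 genes called higher. From day 0 to day 6 it was called for *Mrc1* (3.35, SE 0.56, adjusted p = 0.0119), against 0.898% of 10353 genes (93 higher and 197 lower, or 126 and 150 with median centring and 156 and 163 with quantile normalization), and not for *Stab1* (4.04, SE 0.97, adjusted p = 0.0544) or *Msr1* (2.18, SE 0.59, adjusted p = 0.0777). With the replicate number as a block, both of these passed (adjusted p = 0.0138 and 0.0315). This block joins libraries of different days by number, but day 0 was not shown to pair with the cultures. *Stab1* also passed with quantile normalization (0.0384), in the fit of all 18 libraries (0.0483) and without the early-named libraries (0.00546). Leaving out single libraries, *Stab1* passed without WT day 6 replicate 1 or any of the DKI day 6 replicates (0.0323 to 0.0494), and *Msr1* without WT day 6 replicate 2 (0.0441). *Marco* was called from day 0 to day 3 without DKI day 3 replicate 2 (2.45, adjusted p = 0.00456) and in no other omission. *Marco* to day 3 and *Stab1* to day 6 passed the filter only through the DKI cultures, so that their calls here are descriptions. *Msr1* was not called from day 0 to day 3 either (2.01, SE 0.58, adjusted p = 0.102). The interaction of *Mrc1* to day 3 was lost in 7 of 12 omissions of a library (adjusted p 0.0538 to 0.0706), namely those of WT day 0 replicates 2 and 3, WT day 3 replicate 3, the 3 DKI day 0 replicates and DKI day 3 replicate 1, and without the filter (0.0573). From day 3 to day 6 none of the 7 was called, nor was any of the 9985 genes fitted (0%, with 89 at an unadjusted p under 0.05).

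Since RPKM is scaled to gene length, the levels of the 7 genes can be added, and the make-up of the sum changed with day and genotype. The sum was 160.1 ± 38.6 RPKM (SD, n = 3) in WT and 150.4 ± 25.9 in DKI monocytes, of which *Msr1* gave 49.2% and 47.2% and *Scarb1* 44.2% and 46.8%. In WT MDCs the sum was 395.6 ± 168.5 RPKM on day 3 and 386.3 ± 108.1 on day 6, and *Cd36* gave 58.1% and 60.9% of it. In DKI MDCs the sum was 1051.0 ± 184.0 RPKM on day 3, shared between *Mrc1* (33.9%), *Msr1* (27.3%), *Cd36* (19.5%) and *Stab1* (11.9%). On day 6 it was 1241.6 ± 278.5 RPKM, with *Cd36* at 37.2%, *Mrc1* at 31.9%, *Msr1* at 21.1% and *Stab1* at 4.95%. These mean shares differed between libraries, in DKI from 2.89% to 29.2% for *Cd36* on day 3, from 7.59% to 20.4% for *Stab1* on day 3 and from 0.948% to 11.5% for *Stab1* on day 6. Without replicate 1, an omission added after the values were seen, the mean DKI share of *Stab1* was 7.62% on day 3 and 1.68% on day 6. The lowest DKI sum (893.0 RPKM on day 3, 1059.1 on day 6) was above the highest WT sum (557.6 and 485.1 RPKM). *Cd163* and *Marco* gave at most 3.98% and 1.81% in any library.

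**Figure D4:**
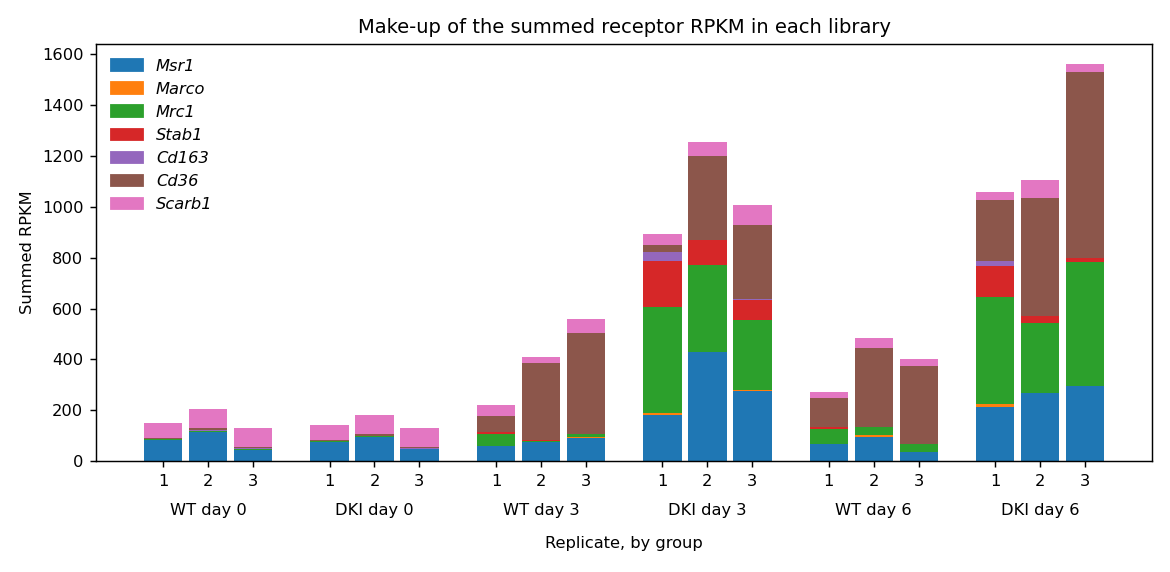
Summed RPKM of the 7 genes in each of the 18 libraries (y axis), stacked by gene and grouped by genotype and day. The DKI bars of days 3 and 6 stand between 893.0 and 1562.2 RPKM, all above the WT bars. Their green (*Mrc1*) and blue (*Msr1*) blocks are taller than those of any WT bar.

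Ordered by group mean, the DKI groups of days 3 and 6 came first for *Msr1*, *Mrc1*, *Stab1*, *Marco* and *Cd163*. Their ranges overlapped each other for each of these genes and were apart from the next group, a WT group, for *Msr1*, *Mrc1* and *Stab1*. *Cd36* was highest in DKI on day 6 (478.1 ± 245.2 RPKM), followed by WT on day 3 (254.8 ± 172.4), WT on day 6 (244.8 ± 113.8) and DKI on day 3 (217.0 ± 166.7), and only the gap to both day 0 groups exceeded the spread. *Scarb1* was highest in the DKI (69.2 ± 9.79 RPKM) and WT monocytes (68.3 ± 9.75) and lowest in WT on day 6 (30.5 ± 7.60), with each neighbour in this order overlapping the next.

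Some macrophage and dendritic cell markers were also called between the genotypes on days 3 and 6. Of the 10 macrophage markers, *Mertk*, *Cd68* and *Apoe* were called higher in DKI on day 3 and *Cd68* and *Apoe* on day 6, when *Mertk* had a log2 fold change of 1.94 (SE 0.52, adjusted p = 0.0689, and 0.0328 with the replicate number as a block). The 10 macrophage markers summed to 684 to 1746 RPKM in WT and 2750 to 14217 RPKM in DKI on day 3, and to 705 to 3415 RPKM and 3024 to 17127 RPKM on day 6, where the genotypes overlapped. Both DKI maxima were replicate 1, the library that was also the highest for *Stab1*, and *Apoe* gave 7177 and 9422 RPKM of them. The 10 dendritic cell markers summed to 12655 to 15956 RPKM in WT and 1330 to 5107 RPKM in DKI on day 3, and to 11433 to 19329 and 2128 to 8138 RPKM on day 6, with DKI replicate 1 the lowest on both days. Most of these sums came from *H2-Ab1* and *H2-Aa*, the class II genes that were the most abundant of the list and were not called (adjusted p = 0.0793 and 0.118 on day 3, 0.127 and 0.112 on day 6). On day 3, *H2-Ab1* was at 4088 to 6963 RPKM in WT and 613.3 to 1976 RPKM in DKI, and *H2-Aa* at 4588 to 7137 and 602.3 to 2875 RPKM. Of the other markers *Cd209a*, *Ccr7*, *Zbtb46*, *Irf4*, *Ccl22* and *Cd83* were called lower in DKI on both days, although with the replicate number as a block the adjusted p was 0.0563 and 0.0617 for *Cd209a* and 0.0551 for *Zbtb46* on day 6. All 10 markers of each list were above 0.1 RPKM in at least one library of every MDC group. The neutrophil markers varied within groups (106.7 to 2707 RPKM in WT and 297 to 1780 in DKI on day 3, 15.2 to 382 and 20.8 to 1710 on day 6), with overlapping genotypes. The monocyte markers summed to 857 to 1203 RPKM in WT and 1499 to 2393 RPKM in DKI on day 3 and to 642 to 1141 and 1402 to 1732 RPKM on day 6, without overlap, and none of the 8 was called. Most of these sums came from *Itgam* and from *Csf1r*, which is also on the macrophage list. *Ccr2* overlapped between the genotypes on both days. *Ly6c2* overlapped on day 6 (8.66 to 13.1 RPKM in WT, 5.30 to 157.8 in DKI) but not on day 3 (11.2 to 39.8 and 49.5 to 775.1). The stromal and endothelial markers, of which none was called, summed to 40.1 and 43.7 RPKM in DKI replicate 1 on days 3 and 6, against 4.59 to 8.36 RPKM in the other DKI libraries and 3.39 to 9.50 RPKM in WT. The 5 B and plasma cell markers, none called, summed to 0.991 to 1.44 RPKM in WT and 2.75 to 8.41 RPKM in DKI on day 3 and to 0.673 to 1.18 and 1.80 to 4.59 RPKM on day 6, without overlap. The part of the cell make-up in the receptor values was not tested.

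Among 21 other scavenger and mannose receptor genes, 1 was called higher and 1 lower on each day, beside the shares of all genes given above. On day 3, 11 passed the filter, and *Cd68*, the class D receptor macrosialin, was called higher in DKI (log2 fold change 1.56, SE 0.34, adjusted p = 0.0475, and 0.0622 with the replicate number as a block), while *Ly75* (DEC-205), a dendritic cell receptor of the mannose receptor family, was called lower (-2.40, SE 0.40, adjusted p = 0.0236). *Ly75* was at 12.98, 37.2 and 16.7 RPKM in WT and at 2.00, 3.94 and 3.37 RPKM in DKI, the opposite direction to *Mrc1*. Its day 6 log2 fold change was -2.18 (SE 0.56, adjusted p = 0.0638, and 0.0452 with the block). On day 6, 12 passed the filter, *Cd68* was again called higher (1.80, SE 0.24, adjusted p = 0.0162), and *Olr1* (LOX-1), a receptor for oxidized LDL, was called lower (-2.56, SE 0.25, adjusted p = 0.00803). *Olr1* was at 20.9, 36.1 and 36.0 RPKM in WT and at 3.35, 4.89 and 4.77 RPKM in DKI on that day. The median log2 fold change of the genes fitted was 0.45 on day 3 and 0.72 on day 6. *Cd14*, the LPS co-receptor and the other most abundant gene of this list, had log2 fold changes of 0.95 (SE 0.38, adjusted p = 0.175) and 1.19 (SE 0.60, adjusted p = 0.246).

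Of 16 genes for ligands and partners, 13 were fitted on each day. *Tlr6*, which pairs with TLR2 and cooperates with CD36, was called higher in DKI on day 3 (1.29, SE 0.20, adjusted p = 0.0194) and day 6 (1.19, SE 0.24, adjusted p = 0.0405). *Adam17*, a protease that sheds CD163 and other surface proteins, was called higher on day 3 only (0.88, SE 0.16, adjusted p = 0.0277, and 0.0579 with the block), and the tyrosine kinase *Fyn*, which acts downstream of CD36, lower on day 3 only (-1.58, SE 0.22, adjusted p = 0.0145). Their day 6 values were 0.47 (SE 0.27) and -1.05 (SE 0.26), and the difference between days was not called for either. The most abundant members of this list, *Thbs1* and *Cd9*, were not called on either day.

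All 13 transcription factors of the list were fitted. *Maf* (c-MAF), a factor of the macrophage lineage, was called higher in DKI on both days, with 5.68, 1.68 and 3.28 RPKM in WT and 407.6, 104.8 and 102.1 RPKM in DKI on day 3 (log2 fold change 5.28, SE 0.61, adjusted p = 0.00966) and a log2 fold change of 4.54 (SE 0.73, adjusted p = 0.0252) on day 6. *Nr1h3* (LXRα; 2.23, SE 0.46, adjusted p = 0.0393), its partner *Rxra* (0.71, SE 0.15, adjusted p = 0.0452) and the glucocorticoid receptor *Nr3c1* (0.71, SE 0.16, adjusted p = 0.0492) were called higher on day 3, and with the block their adjusted p was 0.0599, 0.0642 and 0.0725. *Pparg*, the lipid-sensing receptor that is known to control *Cd36*, was called higher on day 6 (1.70, SE 0.25, adjusted p = 0.0217) and had a log2 fold change of 1.04 (SE 0.32, adjusted p = 0.107) on day 3. *Spi1* (PU.1) and *Cebpb*, the most abundant of the 13, were not called, with day 3 values of -0.18 (SE 0.20) and 1.51 (SE 0.49).

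**Figure D5:**
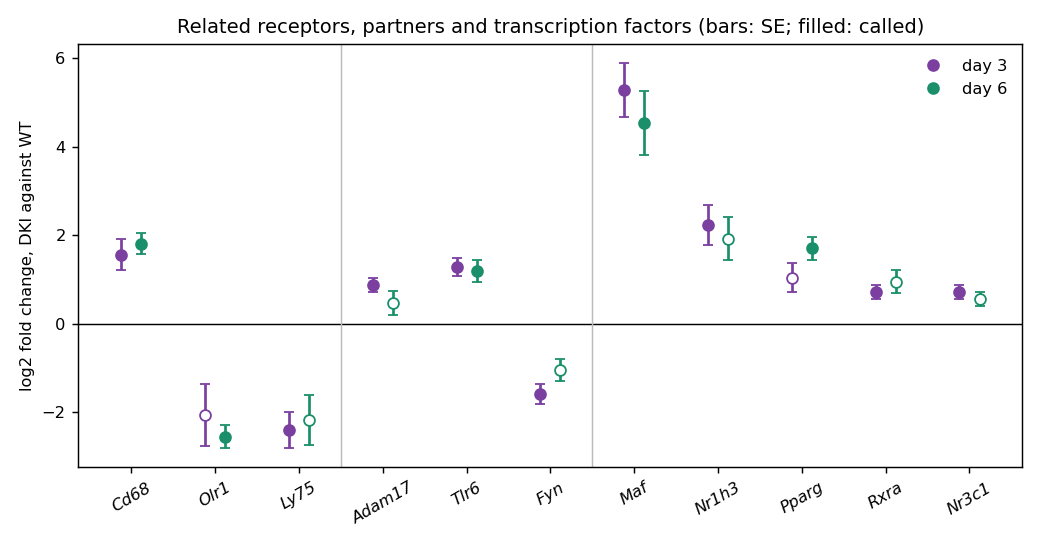
log2 fold change between DKI and WT on days 3 and 6 (points, standard error as bars, filled where called) for the related receptors (left), partners (middle) and transcription factors (right) called on at least one of the days. *Maf* stands highest, at 5.28 and 4.54, and *Olr1*, *Ly75* and *Fyn* lie under 0.

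Over the 18 libraries, which share genotypes and days, the genes whose log2(RPKM + 1) ran closest to each member among 10417 genes differed from member to member. For *Mrc1* they were *Ctso* (cathepsin O, r = 0.97), *Mertk* (a receptor for apoptotic cells, 0.97) and *Cd300ld* (0.97). For *Stab1* they were the chemokine gene *Ccl12* (0.99), *Gas6* (a ligand of MERTK, 0.96) and *Maf* (0.95). For *Cd36* they were *Lpl* (lipoprotein lipase, 0.97), *Slc41a2* (0.97) and *Speg* (0.96), and for *Cd163* the nuclease gene *Trex1* (0.96), *Enpp4* (0.95) and the nucleic acid sensor gene *Zbp1* (0.95). *Msr1* ran closest to *Naa20* (0.93), *Slc35f6* (0.92) and *Fam20c* (0.92), *Scarb1* to *Tram1* (0.90), *Emb* (0.87) and *Ggh* (0.85), and *Marco* less closely to any gene, with *Neu1* (0.81), *Fpr1* (0.80) and *Cd38* (0.80). Between the members themselves, *Mrc1* and *Stab1* ran closest to each other (0.89).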

How the data were processed

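RNA-seq values of 18 mouse libraries (6 groups of 3, by genotype and day as the labels give them) were analysed. The authors aligned single-end reads to mm10 with Subread, counted them on RefSeq genes with featureCounts and deposited RPKM values, with 1 column per library. Tool versions, strandedness and the treatment of reads that match several genes are not given in the sources used here. RPKM does not hold read totals, so depth was estimated from the values of 1 read in 1177 short odorant, pheromone and taste receptor genes (4 to 13 genes per library, 90.1% of 71 other low values whole within 0.05). Depths and read numbers are therefore approximate, and no count test was run. Floors cover counting error only.

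Genes with a mean above 2 RPKM in at least one group of a comparison were fitted as log2(RPKM + 1) with limma 3.58.1 in R 4.3.3 (lmFit, and eBayes with an intensity trend) and were called at a Benjamini-Hochberg adjusted p under 0.05, over all genes fitted, and a fold change above 1.5, the study's limits. Fold changes on this scale understate those of low genes. The fit was tested on simulated data. Interactions used the 12 libraries of 2 days. Alternatives were a pseudocount of 0.1, no filter, the replicate number as a block, median centring, quantile normalization, 1 fit of all 18 libraries, the libraries without an earlier year in their names, and each library left out.

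The replicate numbers come from the labels. Deviations from the group means correlated between the WT and DKI library of each number (mean r 0.80, 0.26 and 0.39 on days 0, 3 and 6, lowest 0.16), as did those of days 3 and 6 (0.36 in WT, 0.56 in DKI, lowest 0.12), so that the blocked value is given where it changes a call. The members and gene lists were chosen with earlier results of these data known, and the study names some of the members. Other listed genes are named only if called between genotypes, if among the 2 most abundant of their list or if they define a marker list. For each member, the 3 genes with the highest r are named. The RPKM values do not show the knockin mutations. Sequences and positions are from RefSeq and exon counts from GENCODE (GRCm38).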

Additional observations from a re-analysis of the deposited data

Results flagged for a closer look

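For 2 of the 7 receptors the change from day 0 to the GM-CSF cultures differed between the genotypes by a test of the difference itself, in the fit without a replicate block. The change of *Mrc1* was larger in DKI than in WT cells by 4.51 on the log2 scale from day 0 to day 3 and by 3.35 from day 0 to day 6. The change of *Stab1* was larger in DKI by 5.37 from day 0 to day 3. Over all genes, 1.2% of 10212 were called higher by this test to day 3 and 0.898% of 10353 to day 6. The day 3 call of *Mrc1* was lost in 7 of 12 omissions of a library. Groups of 3 libraries were not tested for outlying samples.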

How the results depend on the processing

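Under the alternatives other than leaving out a library, 429 of the values recomputed kept their direction and their side of the threshold, 9 newly passed it, 11 no longer passed it, and 8 turned in sign. The median log2 fold change over all genes, which differs from 0 on days 3 and 6, and the 3 libraries per group set the limits of these comparisons. The cause of the changes below was not tested, except that the fit without a filter adjusts over more genes and the fit without the early-named libraries has fewer samples.

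Without the filter, 1 receptor was called between genotypes on day 3, 1 on day 6 and 1 by the interaction to day 3, in place of 3, 3 and 2. Without the early-named libraries, 0 were called on day 6 in place of 3, 2 in WT from day 0 to day 3 in place of 1, and 2 by the interaction to day 6 in place of 1. In WT from day 0 to day 3 and by the interaction to day 6, quantile normalization gave 2 and 2 and the fit of all 18 libraries gave 3 and 2. The number of all genes called on day 3 was 723, and 358 without the filter, 1359 in the fit of all 18 libraries and 375 without the early-named libraries. On day 6 it was 742, and 187, 1573 and 36. Leaving out each library in turn, it was 197 to 718 on day 3, lowest without WT replicate 1, and 95 to 991 on day 6, lowest without DKI replicate 3 and highest without DKI replicate 2.

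Without the early-named libraries the sign turned for *Marco* on day 6 (-1.41) and in its interaction to day 6 (-1.40), for *Msr1* (0.15) in WT and *Cd163* (-0.23) in DKI from day 0 to day 3, for *Cd36* in WT from day 3 to day 6 (-0.16) and for *Cd36* in the interaction to day 3 (0.10). It also turned for *Msr1* in WT from day 0 to day 3 with median centring (0.069) and quantile normalization (0.052). None of these values was called.

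With the replicate number as a block, no receptor changed its call between genotypes on any day or between days within a genotype. By the interaction from day 0 to day 6, 3 were called in place of 1, *Mrc1* with *Stab1* (4.04, adjusted p = 0.0138) and *Msr1* (2.18, adjusted p = 0.0315). Libraries of the same number on days 0 and 3 did not deviate together (mean r -0.08 in WT and 0.05 in DKI), so that the numbers do not pair those days. Days 0 and 6 were not compared in this way, so the pairing behind the blocked interaction calls to day 6 was not shown.

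Leaving out each library in turn, the receptors called numbered 1 to 3 on day 3, 1 to 2 on day 6, 1 to 2 in WT and 4 to 5 in DKI from day 0 to day 3, 1 to 3 by the interaction to day 3 and 1 to 2 by that to day 6. The log2 values whose sign turned spanned, on day 0, -0.51 to 0.18 for *Msr1*, -0.39 to 0.26 for *Mrc1*, -0.68 to 0.14 for *Cd36*, -0.33 to 0.24 for *Cd163* and -0.10 to 0.14 for *Scarb1*. They spanned -1.34 to 0.66 for *Cd36* on day 3 and -0.94 to 1.13 for *Marco* on day 6. From day 0 to day 3 they spanned -0.40 to 0.29 for *Msr1* in WT and -0.23 to 1.81 for *Cd163* in DKI. From day 3 to day 6 in WT they spanned -0.59 to 0.083 for *Msr1*, -0.81 to 0.53 for *Stab1* and -0.64 to 0.67 for *Cd36*, and in DKI -0.41 to 0.20 for *Msr1*, -0.0073 to 0.40 for *Mrc1*, -1.57 to 0.21 for *Marco* and -1.90 to 0.64 for *Cd163*. For the interactions they spanned -1.08 to 0.92 for *Cd36* to day 3, -0.94 to 1.13 for *Marco* to day 6, and between days 3 and 6 -0.20 to 0.48 for *Msr1*, -1.89 to 0.65 for *Cd163* and -0.47 to 0.23 for *Scarb1*. None of these was called.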
